A study of Mus musculus with 6 samples.

Results

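The genes described here encode splicing factors and proteins of the small nuclear ribonucleoproteins (snRNPs) in mouse oocytes. They were taken by symbol, as every row of the deposited table whose mouse symbol began with Srsf and a digit, Hnrnp, Sf3a, Sf3b, Prpf and a digit, or Snrp. This gave 66 of 28738 rows. The 66 were 20 hnRNP genes, 13 Snrp genes, 13 Prpf genes, 11 Srsf genes and 9 genes of the SF3A and SF3B complexes. One of them, Snrpert, is annotated as a processed pseudogene, and the rest as protein-coding. All 66 passed the filter on low values, under which 3 or more of the 6 libraries had to reach a linear value of 10, and which left 17450 genes.

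The samples were oocytes that had finished growth and still had their germinal vesicle, held in prophase of the first meiotic division, from mice of the C57/Bl6/N;129SvEv7 strain. The Uba3 cKO group, with a conditional knockout of Uba3, had 3 libraries, and the control group had 3 libraries. Each library was made from a pool of about 150 oocytes. The Uba3 protein carries the active site of the NEDD8-activating enzyme, and NEDD8 is a small protein attached to cullins and other targets much as ubiquitin is. The sources used here do not give the Cre line, the alleles carried by the controls, the age of the mice or whether each pool had its own mice. The p-values therefore describe the spread between pools, which may be technical.

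The spliceosome removes introns from pre-mRNA. U1 snRNP recognises the start of an intron and U2 snRNP its branch site, and the U4/U6.U5 tri-snRNP then joins to form the catalytic machine. Each of these snRNPs other than U6 carries a ring of Sm proteins around its RNA. SR proteins mostly favour the use of the exons they bind, while hnRNP proteins coat nascent RNA and often oppose the use of a splice site. A fully-grown oocyte has largely stopped transcription and lives on stored mRNA.

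Levels are given as deposited by the authors, normalized and in log2 units, and differences are Uba3 cKO minus control on that scale. The depth of each library is unknown. The targeted gene, Uba3, stood at 10.03, 10.16 and 10.36 in Uba3 cKO replicates 1, 2 and 3, against 11.37, 11.46 and 11.34 in control replicates 1, 2 and 3. Its level in Uba3 cKO oocytes was 2.31-fold lower. All 10 oocyte markers were kept, with a median level of 14.80 in controls. Their summed linear values lay between 389940 and 428523 in Uba3 cKO libraries and between 439523 and 506003 in control libraries, and 2 of the 10 fell (Zp2 and Bmp15, named after their values were seen), beside 2.5% of all kept genes. The sums of 11 theca and stroma markers lay between 1506 and 1695 in Uba3 cKO libraries and between 1925 and 2882 in control libraries, and 5 of the 11 fell, beside the same 2.5%. Over every listed marker, 3 of which lay below the filter on low values, the sums overlapped for the 12 granulosa and cumulus markers (13852 to 17620 in Uba3 cKO, 15530 to 18778 in control), the 10 blood and immune markers (543 to 594 in Uba3 cKO, 592 to 706 in control) and the 7 endothelial markers (3771 to 4290 in Uba3 cKO, 3697 to 4036 in control). Among the kept markers, 2 rose and 1 fell of 11 for granulosa and cumulus. For blood and immune cells 2 fell of 8, and for endothelium 1 fell of 7. As a share of its list, each of these counts lay above the background. That background was 5.64% of all kept genes called higher and 2.5% called lower. None of these sums was 0, and the part of these shifts in the results below was not tested. In pooled samples, fewer cells of a type and less RNA per cell cannot be told apart.

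Most of the splicing machinery differed little between Uba3 cKO and control oocytes. Of the 66 genes, 3 rose and none fell at an adjusted p under 0.05 in limma, and 63 were not called. The 3 were Snrpc, Hnrnph2 and Hnrnpk. They made up 4.55% of the 66, beside 5.64% of all 17450 genes called higher, 2.5% called lower and 8.14% in either direction, so the share of splicing genes called was near the background. At an unadjusted p under 0.05 the counts were 6 higher and 5 lower, beside 13.0% and 9.78% of all genes. The median difference was 0.01, beside -0.01 over all kept genes. Of the 66 differences, 60 were smaller than 0.25 in size, beside 14566 of 17450 over all kept genes. The median size of a difference, whatever its sign, was 0.11 for the 66 and 0.10 over all kept genes. The 95% interval of the difference lay wholly between -0.5 and 0.5, a change of less than 1.41-fold, for 58 of the 66 (87.9%), beside 85.3% of all kept genes.

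The groups did not overlap for 6 members that were higher in Uba3 cKO oocytes and 6 that were lower (9.09% each), beside 15.1% and 12.8% of all genes. The higher ones were the 3 called genes with Hnrnpa3, Hnrnpab and Hnrnpdl, and the lower ones were Sf3a3, Sf3b4, Prpf31, Prpf4, Snrpb2 and Srsf12. The count of called members rested on single libraries. Leaving out Uba3 cKO replicate 3 or control replicate 3 gave 0, leaving out Uba3 cKO replicate 1 or control replicate 2 gave 1, and leaving out Uba3 cKO replicate 2 gave 2. Without control replicate 1 it was 4 higher and 2 lower.

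**Figure D1:**
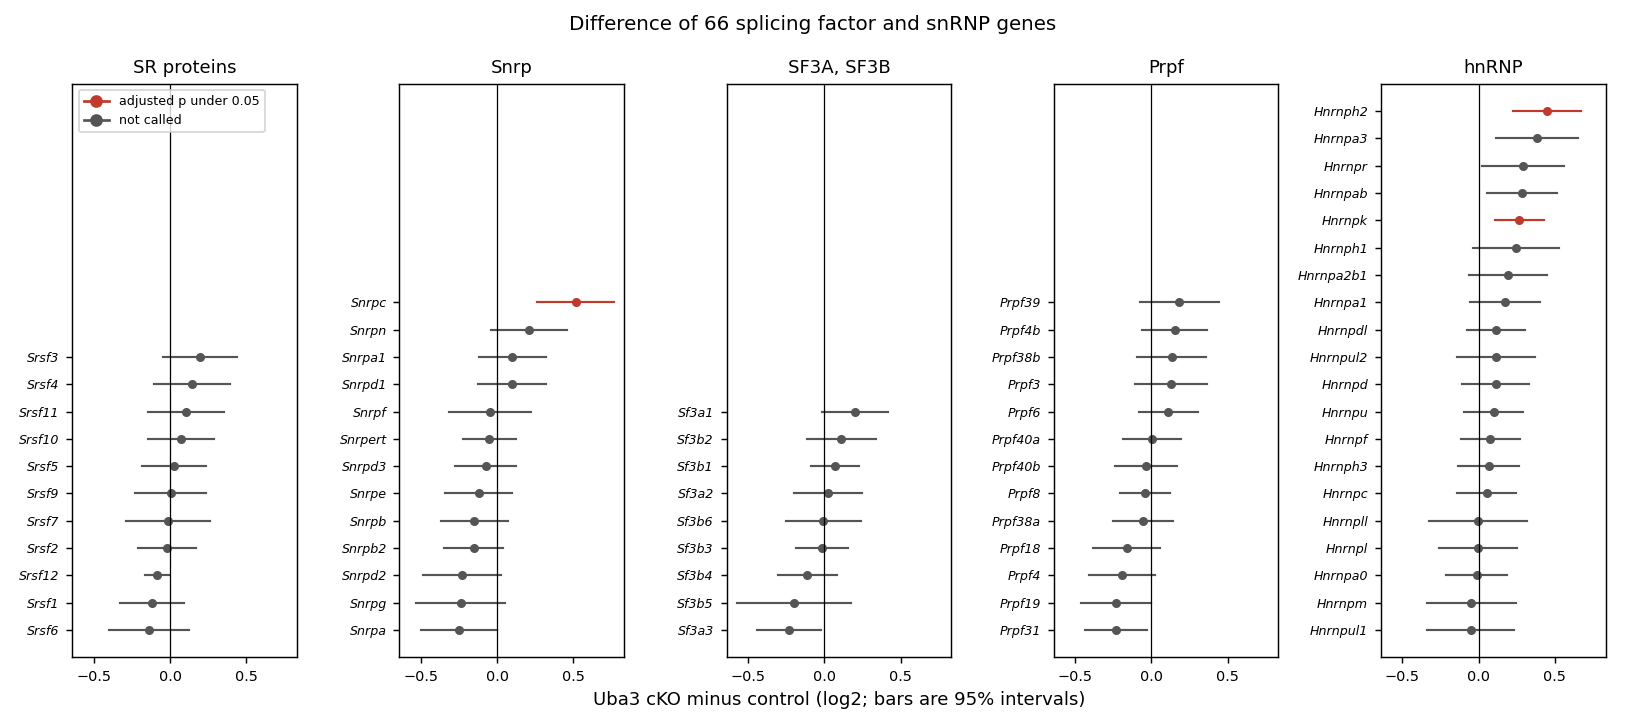
Difference between Uba3 cKO and control oocytes for each of the 66 genes, by family, on the log2 scale. Points are the limma estimates, bars are 95% intervals, red marks an adjusted p under 0.05, and the vertical line marks 0. The 3 red genes, Snrpc, Hnrnph2 and Hnrnpk, lie to the right, and most other intervals cross 0.

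Snrpc encodes U1-C, a protein particular to U1 snRNP that steadies its pairing with the start of the intron. It stood at 10.50, 10.25 and 10.69 in Uba3 cKO replicates 1, 2 and 3, against 9.84, 10.05 and 9.998 in control replicates 1, 2 and 3. Every Uba3 cKO library lay above every control library, with replicate 3 the highest and replicate 2 the lowest of the Uba3 cKO group. The difference was 0.51 (SE 0.12, adjusted p = 0.0158 in limma), a 1.43-fold higher level and the largest among the 66. The call ended without Uba3 cKO replicate 1, Uba3 cKO replicate 3 or control replicate 3, with adjusted p up to 0.0834.

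Hnrnph2, on the X chromosome, encodes an hnRNP that binds runs of G in RNA. It stood at 8.99, 9.10 and 9.21 in Uba3 cKO replicates 1, 2 and 3, against 8.77, 8.60 and 8.59 in control replicates 1, 2 and 3. The groups did not overlap, and control replicate 1 came nearest to the Uba3 cKO group. The difference was 0.45 (SE 0.10, adjusted p = 0.0178 in limma), a 1.37-fold higher level. The call ended without Uba3 cKO replicate 3, control replicate 2 or control replicate 3, with adjusted p up to 0.0895. Its close relatives Hnrnph1, Hnrnpf and Hnrnph3, chosen after their values were seen, differed by 0.25, 0.08 and 0.07 and were not called. The proteins of Hnrnph1 and Hnrnph2 are nearly identical, but the similarity of their transcripts was not measured. Whether reads were divided between the genes in counting was not tested.

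Hnrnpk encodes an hnRNP that binds stretches of C in RNA. It stood at 13.56, 13.53 and 13.59 in Uba3 cKO replicates 1, 2 and 3, against 13.33, 13.26 and 13.30 in control replicates 1, 2 and 3. The libraries of each group lay close together, and the groups did not overlap. The difference was 0.27 (SE 0.08, adjusted p = 0.0439 in limma), a 1.2-fold higher level. The call ended under median centring (adjusted p = 0.0678) and without any single library other than control replicate 1 (adjusted p up to 0.158). Annotated exons of Hnrnpk share 330 bases with Rmi1 on the opposite strand, and the strand setting of the counting is not known. Rmi1, chosen for this overlap, differed by 0.04 and was not called.

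Stretches from the 250 bases before the transcription starts of these 3 genes are given because they are the members that passed the test. They were taken from RefSeq on GRCm38.p6, 5′ to 3′ on the gene's strand, and hold the longest run within 250 bases of the start that lies in no annotated exon. The Snrpc stretch is chr17:27839837-27839973 on the plus strand, the Hnrnph2 stretch is chrX:134601126-134601178 on the plus strand, and the Hnrnpk stretch is chr13:58402143-58402247 on the minus strand. Capitals mark matches to GGGCGG, the SP1 box, or to CCAAT, on either strand.
Snrpc: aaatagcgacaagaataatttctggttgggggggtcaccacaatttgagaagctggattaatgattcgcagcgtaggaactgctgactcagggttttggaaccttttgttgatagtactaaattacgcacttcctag
Hnrnph2: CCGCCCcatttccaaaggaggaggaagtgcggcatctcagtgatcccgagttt
Hnrnpk: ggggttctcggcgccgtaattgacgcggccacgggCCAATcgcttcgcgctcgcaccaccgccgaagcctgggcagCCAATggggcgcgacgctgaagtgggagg
The 3 stretches share none of the searched motifs. The Hnrnph2 stretch holds 1 SP1 box in reverse, the Hnrnpk stretch holds 2 CCAAT boxes, and the Snrpc stretch holds no match. The Hnrnph2 stretch is short because exons of Gla cover the rest of its window. Relative to the start, it runs from -53 to -1, the Snrpc stretch from -250 to -114 and the Hnrnpk stretch from -130 to -26. The bases nearest the starts of Snrpc and Hnrnpk lie in annotated exons and are not part of the stretches.

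**Figure D2:**
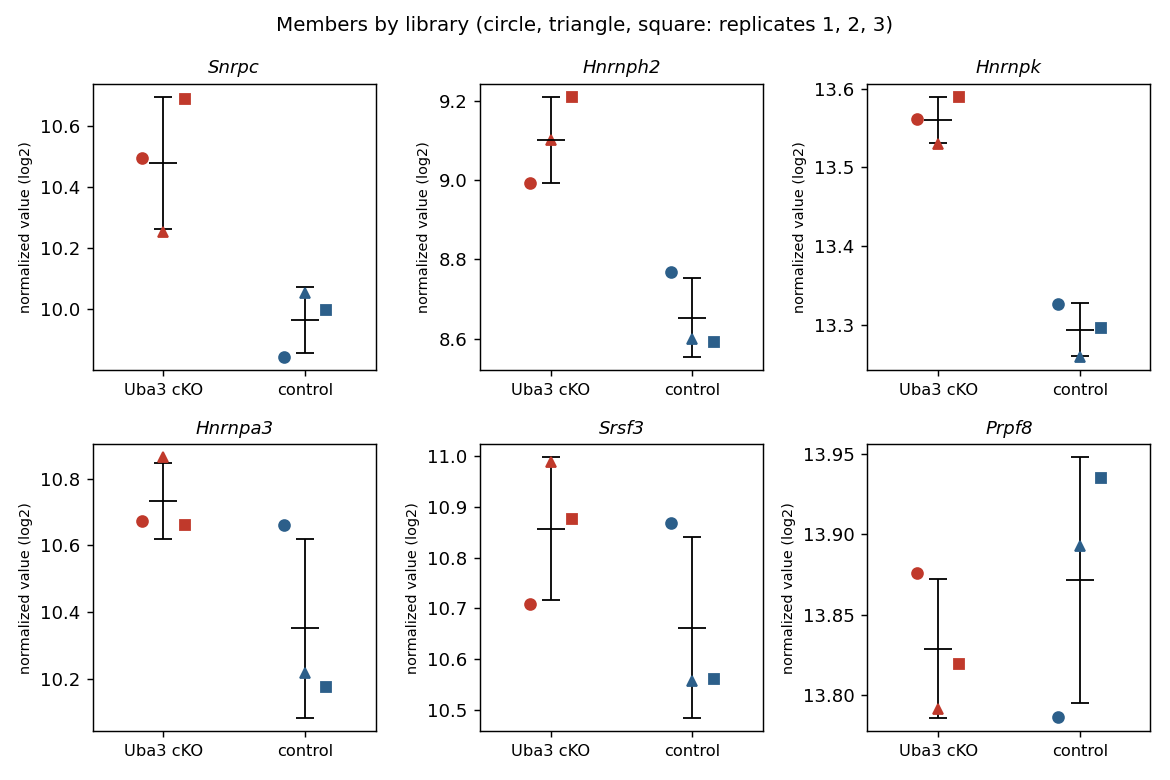
Normalized log2 value of 6 members in each library, with Uba3 cKO on the left of each panel and control on the right. Markers are replicates 1 (circle), 2 (triangle) and 3 (square), and the bars are the mean ± SD (n = 3). The groups are apart for Snrpc, Hnrnph2, Hnrnpk and Hnrnpa3 and overlap for Srsf3 and Prpf8.

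The hnRNP genes leaned higher in Uba3 cKO oocytes without most of them being called. Of the 20, 2 rose, none fell and 18 were not called, beside 5.64% of all kept genes called higher and 2.5% called lower. Of the 20 differences, 15 were above 0, beside 8418 of 17450 over all kept genes. The median difference of the hnRNP genes was 0.11, beside -0.01 over all kept genes. That median was 0.07 to 0.11 under the 12 other processing settings and 0.08 to 0.15 with 1 library left out. Several of these settings change only the filter or the variance model and left the median as it was. It was 0.09 under quantile normalization and 0.07 after the length and GC correction. Among the members not called, Hnrnpa3, a relative of hnRNP A1, stood at 10.67, 10.86 and 10.66 in Uba3 cKO replicates 1, 2 and 3, against 10.66, 10.22 and 10.18 in control replicates 1, 2 and 3. The groups barely cleared each other, since control replicate 1 lay at the level of 2 Uba3 cKO libraries. The difference was 0.38 (SE 0.13, adjusted p = 0.0817), and 0.54 without control replicate 1 (adjusted p = 0.0059). Hnrnpr differed by 0.29 and Hnrnpab by 0.28, with adjusted p of 0.185 and 0.129.

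The libraries themselves differed for this family. The mean deviation of the 20 hnRNP genes from the average library was -0.02, 0.17 and 0.06 in Uba3 cKO replicates 1, 2 and 3, against 0.07, -0.16 and -0.12 in control replicates 1, 2 and 3. Uba3 cKO replicate 1 thus lay below control replicate 1, and the groups overlapped. The share of the summed linear values taken by hnRNP genes was 0.240% ± 0.016 in Uba3 cKO and 0.216% ± 0.013 in control libraries (SD, n = 3 each, exact two-sided permutation p = 0.2, adjusted p = 0.4 over 6 shares). The smallest p that 3 against 3 libraries allow is 0.1. For all 66 genes together the share was 0.687% ± 0.031 in Uba3 cKO and 0.663% ± 0.014 in control libraries (exact two-sided permutation p = 0.2, adjusted p = 0.4). Theca and stroma markers had mean deviations of -0.21, -0.18 and -0.29 in Uba3 cKO replicates 1, 2 and 3. In control replicates 1, 2 and 3 they had -0.07, 0.37 and 0.38, so control replicate 1 lay nearest to the Uba3 cKO group. It was also the nearest control for oocyte markers (-0.02, beside 0.12 and 0.10) and endothelial markers (0.02, beside 0.06 and 0.06). For blood and immune markers it was the farthest (0.15, beside -0.05 and 0.08). For granulosa and cumulus markers the groups overlapped. A link between these patterns and the hnRNP genes was not tested.

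**Figure D3:**
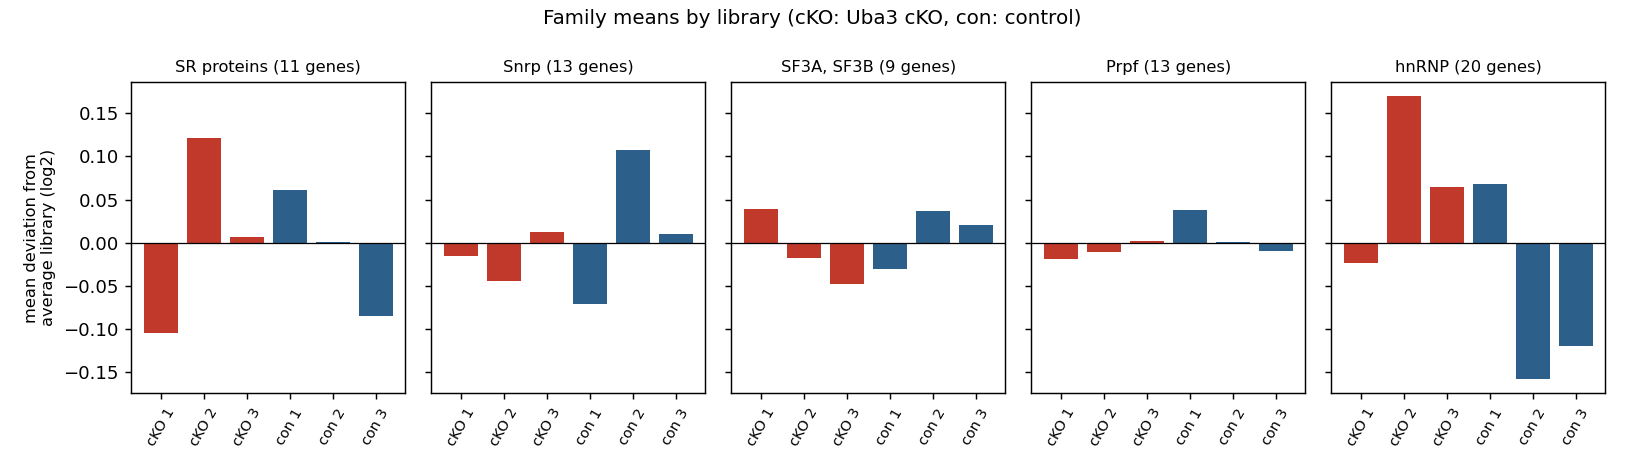
Mean deviation of each family's genes from the average library, in log2 units, with the 3 Uba3 cKO libraries (red) left of the 3 control libraries (blue). For hnRNP genes, control replicates 2 and 3 lie lowest (-0.16 and -0.12) and Uba3 cKO replicate 2 highest (0.17), while control replicate 1 lies beside Uba3 cKO replicate 3.

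None of the 11 SR protein genes was called, and every one had a 95% interval within 0.5 of 0. Their median difference was 0.00, with a range of -0.14 to 0.20. Srsf3, which is required in mouse oocytes, stood at 10.71, 10.99 and 10.88 in Uba3 cKO replicates 1, 2 and 3, against 10.87, 10.56 and 10.56 in control replicates 1, 2 and 3. The groups overlapped, because Uba3 cKO replicate 1 lay below control replicate 1. The difference was 0.20 (95% interval -0.05 to 0.44, adjusted p = 0.322). Srsf4 differed by 0.14 and Srsf6 by -0.14. Srsf1, the SR gene with the highest value, averaged 12.55 ± 0.11 in Uba3 cKO and 12.67 ± 0.16 in control oocytes (SD, n = 3 each), a difference of -0.12. Srsf12, named after its values were seen and near the low end of the table, averaged 3.54 ± 0.04 in Uba3 cKO and 3.63 ± 0.02 in control oocytes, a difference of -0.09.

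The SR genes also varied between libraries of one genotype. Relative to the average library they lay on average at -0.10, 0.12 and 0.01 in Uba3 cKO replicates 1, 2 and 3, against 0.06, 0.00 and -0.09 in control replicates 1, 2 and 3. In Uba3 cKO replicate 2, 9 of the 11 lay above their own mean, and in Uba3 cKO replicate 1 only 1 did. The mean deviations of the groups overlapped.

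Of the 13 Snrp genes, 1 rose (Snrpc), none fell and 12 were not called, beside 5.64% higher and 2.5% lower over all kept genes. Their median difference was -0.08, and 9 of the 13 differences were below 0, beside 9032 of 17450 over all kept genes. The family took 0.0499% ± 0.0015 of the summed linear values in Uba3 cKO and 0.0506% ± 0.0028 in control libraries (SD, n = 3 each, exact two-sided permutation p = 0.7, adjusted p = 0.84 over 6 shares). Its mean deviation was -0.02, -0.04 and 0.01 in Uba3 cKO replicates 1, 2 and 3, against -0.07, 0.11 and 0.01 in control replicates 1, 2 and 3, so the groups overlapped. Snrpa, the U1-A protein, stood at 8.68, 8.71 and 8.46 in Uba3 cKO replicates 1, 2 and 3, against 8.69, 9.02 and 8.89 in control replicates 1, 2 and 3. Control replicate 1 overlapped with the Uba3 cKO group. The difference was -0.25 (95% interval -0.50 to -0.0014, adjusted p = 0.217), with the sign opposite to that of Snrpc, the other U1 protein among the members. The U2 proteins were Snrpb2, whose groups did not overlap (-0.15, adjusted p = 0.331), and Snrpa1, named after its value was seen (0.10).

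The 8 genes for Sm proteins, which form the ring on the snRNA, had a median difference of -0.10 and none was called. Snrpg differed by -0.24 and Snrpd2 by -0.23, with adjusted p of 0.316 and 0.267. Snrpd2 stood at 8.87, 8.78 and 8.84 in Uba3 cKO replicates 1, 2 and 3, against 8.84, 9.30 and 9.05 in control replicates 1, 2 and 3. The mean deviation of the Sm genes was -0.04, -0.06 and -0.01 in Uba3 cKO replicates 1, 2 and 3, against -0.06, 0.12 and 0.05 in control replicates 1, 2 and 3. Control replicates 2 and 3 lay above every Uba3 cKO library, and control replicate 1 lay below them. Snrpn, the imprinted gene for SmN, differed by 0.21 (adjusted p = 0.313) and was named after its value was seen. Snrpn shares exons with other annotated genes on its strand, so its reads are uncertain.

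The SF3A and SF3B complexes, parts of U2 snRNP that hold the branch site, had no called gene among 9. The median difference was -0.01, with a range of -0.23 to 0.20. Sf3b1, the scaffold of SF3B, had the highest value of all 66 genes, at 14.20, 14.24 and 14.29 in Uba3 cKO replicates 1, 2 and 3, against 14.18, 14.23 and 14.11 in control replicates 1, 2 and 3. The groups overlapped, with a difference of 0.07 (95% interval -0.08 to 0.23). The SF3A subunits Sf3a3 and Sf3a1 had opposite signs, at -0.23 and 0.20. Sf3b5, a small SF3B subunit, had the largest standard error of the 66 (0.17), at 9.42, 9.10 and 8.98 in Uba3 cKO replicates 1, 2 and 3 and 8.88, 9.63 and 9.58 in control replicates 1, 2 and 3. Its difference was -0.20 with all libraries and -0.44 without control replicate 1 (adjusted p = 0.0458).

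The 13 Prpf genes include proteins of the U4/U6.U5 tri-snRNP and of the PRP19 complex, a ubiquitin ligase complex needed for spliceosome activation. None was called, every 95% interval lay within 0.5 of 0, and the median difference was -0.04. Prpf8, the large protein at the heart of the spliceosome, stood at 13.88, 13.79 and 13.82 in Uba3 cKO replicates 1, 2 and 3, against 13.79, 13.89 and 13.94 in control replicates 1, 2 and 3. The groups overlapped, and the difference was -0.04 (95% interval -0.21 to 0.12). Prpf31 and Prpf4, both tri-snRNP proteins, had no overlap between groups and were lower in Uba3 cKO oocytes. Their differences were -0.23 (adjusted p = 0.151) and -0.19 (adjusted p = 0.27). The tri-snRNP proteins Prpf3 and Prpf6, named after their values were seen, differed by 0.13 and 0.11 and were not called. Of the 5 tri-snRNP genes among the members, 2 differences were above 0 and 3 below. Prpf19, the ligase itself, differed by -0.23 (adjusted p = 0.213), and by -0.35 without control replicate 1 (adjusted p = 0.0384).

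Levels were compared between genes per kilobase of transcript, as the log2 of the mean linear value divided by the median length of a gene's coding transcripts. On this scale 55 of the 66 lay above the median of all kept genes, and the members' median was 9.11 in control oocytes, beside 6.82 over all kept genes. Among the Sm genes, Snrpe was at 11.88 in Uba3 cKO and 12.001 in control oocytes per kilobase, while Snrpd3, whose protein sits in the same ring, was at 6.04 in Uba3 cKO and 6.11 in control oocytes. Snrpn was at 6.78 in Uba3 cKO and 6.58 in control oocytes, and Snrpb, which encodes the closely related SmB, was at 7.67 in Uba3 cKO and 7.83 in control oocytes. Among hnRNP genes, Hnrnpk (12.15 in Uba3 cKO, 11.88 in control) and Hnrnpc (11.91 in Uba3 cKO, 11.86 in control) led, and Hnrnpul1 (5.59 in Uba3 cKO, 5.62 in control) came last.

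**Figure D4:**
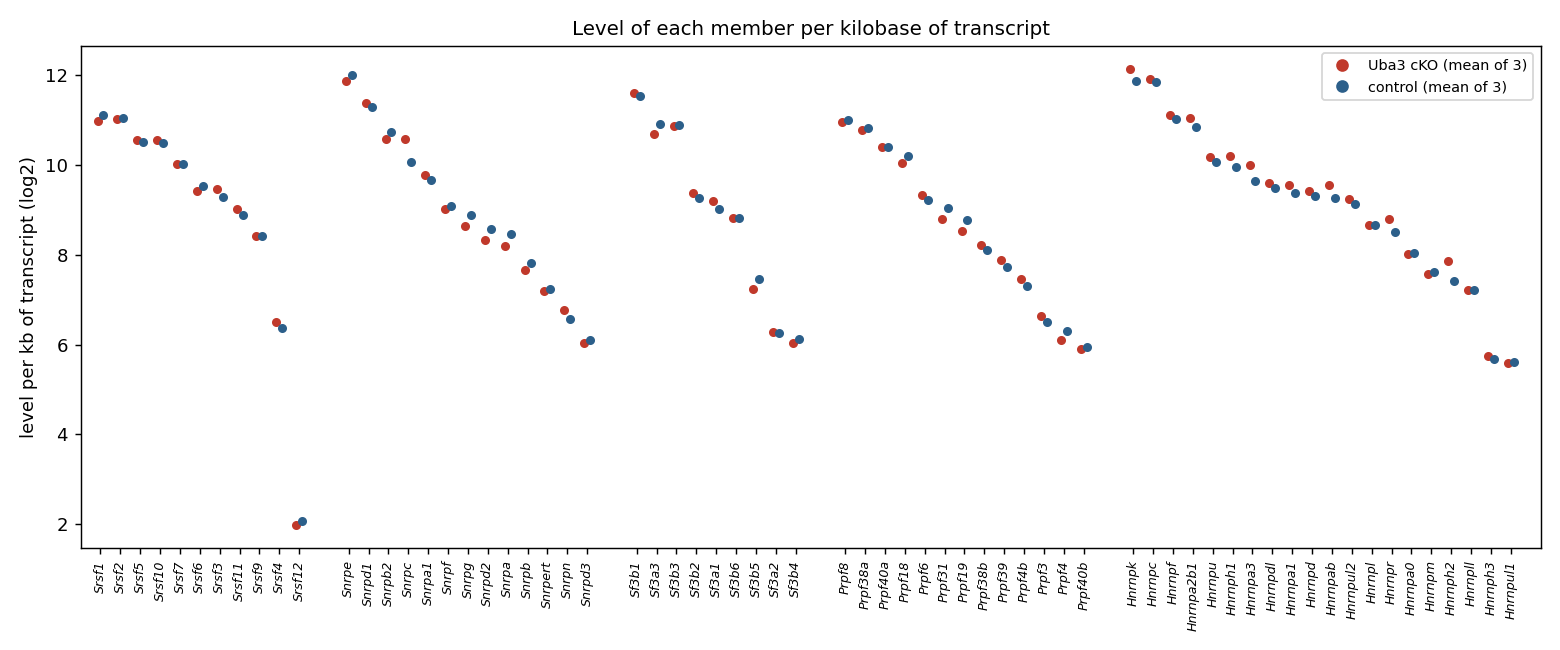
Level of each of the 66 genes per kilobase of transcript, on the log2 scale, with the mean of 3 Uba3 cKO libraries (red, left) beside the mean of 3 control libraries (blue, right), ordered by control level within each family. Levels run from 2.07 for Srsf12 to 12.001 for Snrpe in control oocytes, and the paired points lie close together.

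Beyond the 66, other splicing genes were taken as 9 lists holding 152 genes, of which 148 were kept. Among these 148, 4 rose, 2 fell and 142 were not called. The called shares of 2.7% higher and 1.35% lower stand beside 5.64% and 2.5% over all genes. Their median difference was -0.01. U2af1l4, Snrnp35 and Gemin4 fell below the filter on low values, and Cenatac was not analysed here.

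The list of SR-related proteins and SR kinases had 1 gene that rose and 1 that fell among 20 kept genes (5.0% each). Over all kept genes 5.64% were called higher and 2.5% lower. Both called genes of the list were kinases that phosphorylate SR proteins. Clk1, a nuclear kinase, stood at 12.85, 12.83 and 12.89 in Uba3 cKO replicates 1, 2 and 3, against 12.46, 12.46 and 12.42 in control replicates 1, 2 and 3. Srpk1, a mainly cytoplasmic kinase, stood at 13.44, 13.42 and 13.42 in Uba3 cKO replicates 1, 2 and 3, against 13.72, 13.81 and 13.80 in control replicates 1, 2 and 3. The groups were well apart for both, in opposite directions. Clk1 rose by 0.41 (SE 0.08, adjusted p = 0.0058 in limma), a 1.33-fold higher level, and stayed called without any 1 library. Srpk1 fell by 0.35 (SE 0.07, adjusted p = 0.0105 in limma), a 1.27-fold lower level, and its call ended without Uba3 cKO replicate 1 or control replicate 3 (adjusted p up to 0.0622). Named after their values were seen, the kinases Clk2, Clk3, Clk4, Srpk2 and Srpk3 differed by -0.0012, -0.07, -0.25, -0.16 and 0.05 and were not called.

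Of the 32 alternative splicing regulators, 1 rose, none fell and 31 were not called, beside 5.64% higher and 2.5% lower over all kept genes. The one was Matr3, an RNA-binding protein of the nuclear matrix, at 13.27, 13.26 and 13.40 in Uba3 cKO replicates 1, 2 and 3, against 12.92, 12.93 and 12.66 in control replicates 1, 2 and 3. It was higher in every Uba3 cKO library, by 0.48 (SE 0.09, adjusted p = 0.0063 in limma), and stayed called without any 1 library.

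Of the 20 genes for the PRP19 complex and the activated spliceosome, 2 rose and none fell, and the list's median was -0.08. Crnkl1, a scaffold protein of the spliceosome, stood at 13.32, 13.88 and 13.28 in Uba3 cKO replicates 1, 2 and 3, against 13.04, 12.88 and 13.07 in control replicates 1, 2 and 3. Uba3 cKO replicate 2 stood well above the other libraries. The difference was 0.50 (SE 0.13, adjusted p = 0.0326 in limma), and 0.31 without that library, when the call ended. It also ended without control replicate 2 or control replicate 3 (adjusted p up to 0.117), under quantile normalization (adjusted p = 0.067), with robust empirical Bayes (adjusted p = 0.0527) and without the intensity trend (adjusted p = 0.092). Rbm22, which contacts the catalytic RNA, rose by 0.39 (SE 0.11, adjusted p = 0.0431), and its call ended without any library other than control replicate 1 (adjusted p up to 0.157), without the filter (adjusted p = 0.0563) and under quantile normalization (adjusted p = 0.0557).

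Of the 10 kept genes of the minor spliceosome, which removes a rare class of introns, 1 fell and none rose. Rnpc3, a U11/U12 snRNP protein, stood at 9.47, 9.74 and 9.38 in Uba3 cKO replicates 1, 2 and 3, against 9.90, 9.88 and 9.98 in control replicates 1, 2 and 3. The groups did not overlap, and Uba3 cKO replicate 2 came nearest to the controls. Rnpc3 fell by 0.39 (SE 0.11, adjusted p = 0.042 in limma). Leaving out Uba3 cKO replicate 2 kept the call, while leaving out any other library ended it (adjusted p up to 0.162), as did testing without the filter on low values (adjusted p = 0.0595).

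No gene was called in the other 5 lists. These were 15 kept factors of U1, U2 and the branch site (median difference 0.02), 16 tri-snRNP factors (-0.07), 10 LSm proteins (-0.02), 10 proteins of the exon junction complex (0.13) and 15 proteins of snRNP assembly (0.01). At an unadjusted p under 0.05 in limma, 3 genes of these lists were higher and 1 was lower, beside 13.0% and 9.78% of all kept genes.

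**Figure D5:**
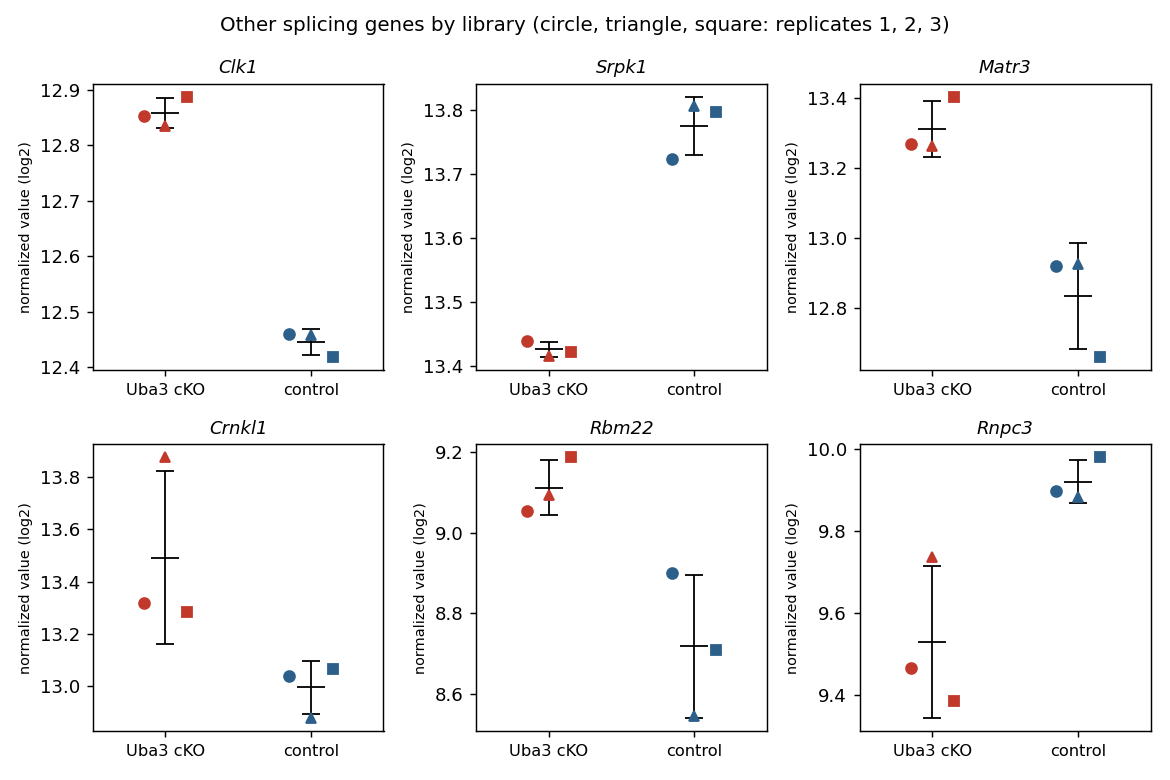
Normalized log2 value of the 6 called genes of the splicing lists in each library, with Uba3 cKO left of control. Markers are replicates 1 (circle), 2 (triangle) and 3 (square), and bars are the mean ± SD (n = 3). Clk1, Matr3, Crnkl1 and Rbm22 lay higher and Srpk1 and Rnpc3 lower in Uba3 cKO, with no overlap between groups.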

How the data were processed

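Per the labels' protocols, a PicoPure kit gave the RNA and an Illumina TruSeq kit the libraries. Build GRCm39 and the tools DESeq2, featureCounts, STAR and fastp stand in the submitters' processing notes, without versions or settings. The deposited table holds log2 values normalized by the authors. That unit was inferred from their range, 0.0363 to 18.01. Their shape is that of a regularized logarithm, which would shrink differences at low levels. The transform itself is not given in the sources used here. Counts and depth are not used here, so no counting interval is given. Of 28738 gene IDs, 27660 were matched to symbols in GENCODE M21 (GRCm38), which also gave transcript lengths, GC content and overlaps.

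A gene was kept where its linear value, the antilog of the deposited one, reached 10 in 3 or more of 6 libraries. The 17450 kept genes were fitted together in limma 3.58.1 (R 4.3.3), letting the prior variance follow the mean level. Calls used p-values adjusted by the Benjamini-Hochberg method over these genes, with a threshold of 0.05. The adjusted p-values of single genes are all limma's. On simulated data the fit recovered 40% of changes of 0.3 and 98% of changes of 0.6 in log2, with 11 false among 180 calls. A gene that was not called may therefore still differ by 0.3 or more. Hnrnpa3 was not called at a difference of 0.38, with an interval from 0.11 to 0.65. Sf3b5, also not called, had an interval from -0.57 to 0.17. Promoter motifs were searched on both strands. The members and lists were chosen with earlier results of these data known. The text names every called member, up to 3 others per family with the largest difference, the highest in each family, Srsf3, and up to 4 called genes per list. Genes named outside this rule are marked, except those given only by level or by group overlap. Annotated exons of 22 members overlap those of another gene in the table, 20 of them on the opposite strand, and without a known strand setting their reads cannot be told apart. Alternatives covered the filter, pseudocount, scaling, variance model, weights, a replicate block, transcript length and GC content, and leaving out each library.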

Additional observations from a re-analysis of the deposited data

How the results depend on the processing

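The count of called members was 2 to 4 higher and 0 lower under the 12 alternatives that kept every library. Leaving out 1 library gave 0 to 4 members higher and 0 to 2 lower, a median member difference of 0.0065 to 0.0721, the highest without control replicate 1, and 482 to 1014 genes higher and 136 to 623 lower over the whole table, beside 984 and 437 with all libraries. With array weights 829 genes were lower over the whole table. With the replicate block, Snrpc and Hnrnph2 remained called and Hnrnpk did not (adjusted p = 0.119), so 2 members were higher, and 899 genes were higher and 359 lower over the whole table. With the block, Rbm22 and Rnpc3 also lost their calls (adjusted p = 0.0533 for each), and Rbm22 also under the length and GC correction with the block (adjusted p = 0.063). Same-numbered libraries deviated with correlations of -0.09, -0.20 and -0.05 and no library correlated best with its own number (the best matches, between different numbers, had correlations of 0.19, 0.28 and 0.25), so the numbers were not taken as pairs. The difference of Sf3b1 was -0.0048 after the length and GC correction, with and without the replicate block, and Hnrnpk was also not called under that correction with the block (adjusted p = 0.114). With array weights Hnrnpa3 was called (0.43, adjusted p = 0.0199). The cause of these changes was not tested. The largest Uba3 cKO minus control difference in share of summed values without 1 library was 0.0387 percentage points, and the smallest 0.0078. Depth is unknown, so what it limits cannot be stated.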

Other observations

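A promoter sequence was found for 57 of the 66 genes, of which the 250 bases before the first listed start were searched. CCGGAA, the core that ETS factors bind, was present on either strand in 27 of 57 (47.4%), beside 20.4% of 12046 promoters of kept genes. GGGCGG was in 66.7% beside 54.2%, CCAAT in 47.4% beside 36.5%, TATAAA in 8.77% beside 7.46%, ATGGCGG, a YY1 core, in 7.02% beside 3.45%, and TGACGTCA, the cyclic AMP response element, in 3.51% beside 2.49%. The NRF1 motif was in 0 of 57 beside 1.47%, a share too low for a count of 0 among 57 to show a difference. A match is a description of letters and not a binding site.

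Across the 66 genes, the difference between Uba3 cKO and control oocytes had a Spearman correlation of -0.27 with transcript GC content and 0.11 with transcript length, beside -0.19 and 0.10 over 17188 kept genes with both values. All points share the same 6 libraries.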
